A study of Mus musculus with 12 samples.

Results

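Alpha-fetoprotein and 8 further genes that liver epithelium is known to express in the fetus or after injury were followed through mouse livers with CCl4-induced fibrosis. The 9 genes, Afp, Gpc3, Cd24a, Tnfrsf12a, Anxa2, Anxa5, Krt8, Krt18 and Gdf15, were found by their gene names among the 21936 genes of the deposited table, each name standing on a single entry. Gene expression was measured by bulk RNA-seq of liver tissue in 9 libraries, 3 for each of 3 groups of male C57BL/6 mice (C57BL/6J in the study's methods) bought at 6 weeks of age. All mice had received CCl4, a liver toxin, by intraperitoneal injection at 1 mL/kg, 2 times a week for 8 weeks. Livers of the liver fibrosis group (LFG) were taken then. Mice of the regression group (REG) were injected with 200 µL of PBS, and those of the hADMSCs-Exo group with 250 µg of exosome protein in 200 µL, exosomes being small vesicles shed here by human adipose-derived mesenchymal stem cells. Both were given through the tail vein 2 times a week for 4 weeks. Time after CCl4, the tail vein injections and age at sampling therefore all separate REG and hADMSCs-Exo from LFG. Only the comparison of hADMSCs-Exo with REG is between groups of the same time. Mice that received the cells themselves (hADMSCs, 3 samples) were not analysed here. The columns used for hADMSCs-Exo are headed MSC_E in the deposited table and were assigned by that heading, the E being read as exosome, which the table itself does not spell out. Every hADMSCs-Exo value rests on this. Livers without CCl4 were not analysed here either, so no healthy level of any gene is given. The labels do not say that each library is a separate mouse, and p-values measure only the spread between these libraries.

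The fetal liver makes Afp, a serum protein of the albumin family, and Gpc3, a glypican anchored to the cell surface, and both are silenced after birth and are known to return in regenerating or malignant liver. Cd24a, a small glycoprotein on progenitor and bile duct cells as well as on leukocytes, is often counted with them. Tnfrsf12a, also called Fn14, is the receptor of the cytokine TWEAK (Tnfsf12) and is induced in injured hepatocytes and progenitor cells. Krt8 and Krt18 pair to form the keratin filaments of hepatocytes, Anxa2 and Anxa5 bind phospholipid membranes in the presence of calcium, and Gdf15 is a secreted hormone of cell stress.

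Total counts ranged from 13837445 to 19840917 per library. LFG 3 stood apart from the other LFG libraries. On the first principal component of log2 CPM (counts scaled to a common library size by TMM), which held 48.7% of the variance of 12760 genes, it lay at 96.7 against -78.9 for LFG 1 and -56.2 for LFG 2, while the REG and hADMSCs-Exo libraries lay between -17.7 and 17.0. All 13 adult hepatocyte markers were above 0 in every library, and their summed level was lowest in LFG 1 and highest in LFG 3 within LFG, at 94563, 153470 and 171609 CPM in LFG 1, 2 and 3, against 179067 to 186050 in REG and 138387 to 156713 in hADMSCs-Exo. Cyp2e1, a cytochrome of adult hepatocytes that activates CCl4, ranged from 736 to 11938 CPM within LFG, 4482 to 5206 in REG and 6396 to 8932 in hADMSCs-Exo. Other markers of the list went other ways. Alb stood at 108390 CPM in LFG 2 against 101741 in LFG 3, and was lower in hADMSCs-Exo than in REG without overlap. Tat, Pck1 and G6pc were lower in REG than in LFG without overlap. Of the 13, 7 were higher and 6 lower in hADMSCs-Exo than in REG, and likewise in REG than in LFG. The summed level of 12 dividing cell markers was 339 CPM in LFG 1, 88.5 in LFG 2 and 11 in LFG 3, against 16.5 to 27.0 in REG and 18.8 to 26.0 in hADMSCs-Exo. That of 12 stellate cell and myofibroblast markers was 1513, 1026 and 67.2 CPM in the LFG libraries, 236 to 425 in REG and 91.8 to 257 in hADMSCs-Exo. Comparisons of the 9 genes with LFG are therefore given with and without LFG 3, and those of the gene lists with their calls without it. In bulk tissue, fewer cells of a type and less RNA per cell cannot be told apart.

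All 9 genes are protein-coding, and the positions in the table are those of GRCm38. Afp lies at chr5:90490737-90508907 on the plus strand, Gpc3 at chrX:52272426-52613950 on the minus strand and Cd24a at chr10:43578284-43584265 on the plus strand. Tnfrsf12a lies at chr17:23675445-23677468 (minus), Anxa2 at chr9:69453620-69491795 (plus), Anxa5 at chr3:36448923-36475894 (minus) and Gdf15 at chr8:70629393-70632456 (minus). The keratin genes are neighbours on chromosome 15, Krt8 at chr15:101996698-102004482 on the minus strand and Krt18 at chr15:102028180-102032027 on the plus strand. MicroRNA genes lie on the same strand within Gpc3 (Mir6384 and Mir717), Anxa2 (Mir3109) and Anxa5 (Mir7009), and how reads shared with them were counted is not given in the sources used here. Antisense genes overlap Afp, Gpc3 and Anxa2, and a lincRNA on the other strand overlaps Krt8. The use of strand in counting is not given in the sources used here, so reads of these opposite-strand partners cannot be told apart from reads of Afp, Gpc3, Anxa2 and Krt8.

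The promoters of 3 genes are shown because their expression separated in different ways: Tnfrsf12a by group, and Afp and Anxa2 within LFG. Each is the 250 bases before the RefSeq start site in GRCm38.p6, and RefSeq promoters of 8 of the 9 genes were found. Capitals mark matches on either strand to 3 motifs. The GC box was searched as GGGCGG. The TATA box was searched as TATAAA. The site of AP-1, which is formed by Fos and Jun proteins, was searched as TGANTCA. In these 3 windows no match overlapped a match of another motif.
Tnfrsf12a, chr17:23677450-23677699, minus strand: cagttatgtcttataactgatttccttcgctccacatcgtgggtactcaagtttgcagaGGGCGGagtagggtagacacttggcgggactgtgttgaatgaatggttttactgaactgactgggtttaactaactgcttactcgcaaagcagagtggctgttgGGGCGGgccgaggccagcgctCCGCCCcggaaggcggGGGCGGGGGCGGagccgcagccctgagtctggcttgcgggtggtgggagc
Afp, chr5:90490464-90490713, plus strand: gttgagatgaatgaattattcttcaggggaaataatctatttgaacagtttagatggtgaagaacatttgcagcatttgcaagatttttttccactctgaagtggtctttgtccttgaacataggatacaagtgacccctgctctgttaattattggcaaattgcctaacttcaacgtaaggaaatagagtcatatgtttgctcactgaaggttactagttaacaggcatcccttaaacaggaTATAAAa
Anxa2, chr9:69453433-69453682, plus strand: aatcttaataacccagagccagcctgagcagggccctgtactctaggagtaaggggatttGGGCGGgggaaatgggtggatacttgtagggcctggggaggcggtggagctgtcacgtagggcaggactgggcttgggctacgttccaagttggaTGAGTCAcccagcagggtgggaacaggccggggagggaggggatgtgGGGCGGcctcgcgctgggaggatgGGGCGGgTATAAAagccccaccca

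The Tnfrsf12a window held 5 GC boxes and none of the other motifs. The Afp window held 1 TATA box, and that of Anxa2 held 1 AP-1 site, 3 GC boxes and 1 TATA box. Of 32851 RefSeq windows of the same length, 6.75% held the AP-1 site, 32.7% a GC box and 12.4% a TATA box. The matches are a description of the letters only.

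By length-corrected level (FPKM), the keratins stood highest. Krt18 averaged 225 ± 93.5 FPKM in LFG, 186 ± 29.5 in REG and 186 ± 80.4 in hADMSCs-Exo (SD, n = 3), and Krt8 207 ± 81.3, 161 ± 18.9 and 170 ± 66.1. Anxa5 followed at 80.2 ± 58.6, 57.3 ± 3.50 and 49.5 ± 3.07 FPKM. Anxa2, Tnfrsf12a, Gdf15, Cd24a and Afp had group means of 1.00 to 14.7 FPKM, and Gpc3 was lowest in every group, at 1.62 ± 1.10, 0.410 ± 0.114 and 0.320 ± 0.0857 FPKM. The keratins lay within their spread of each other in each group.

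**Figure D1:**
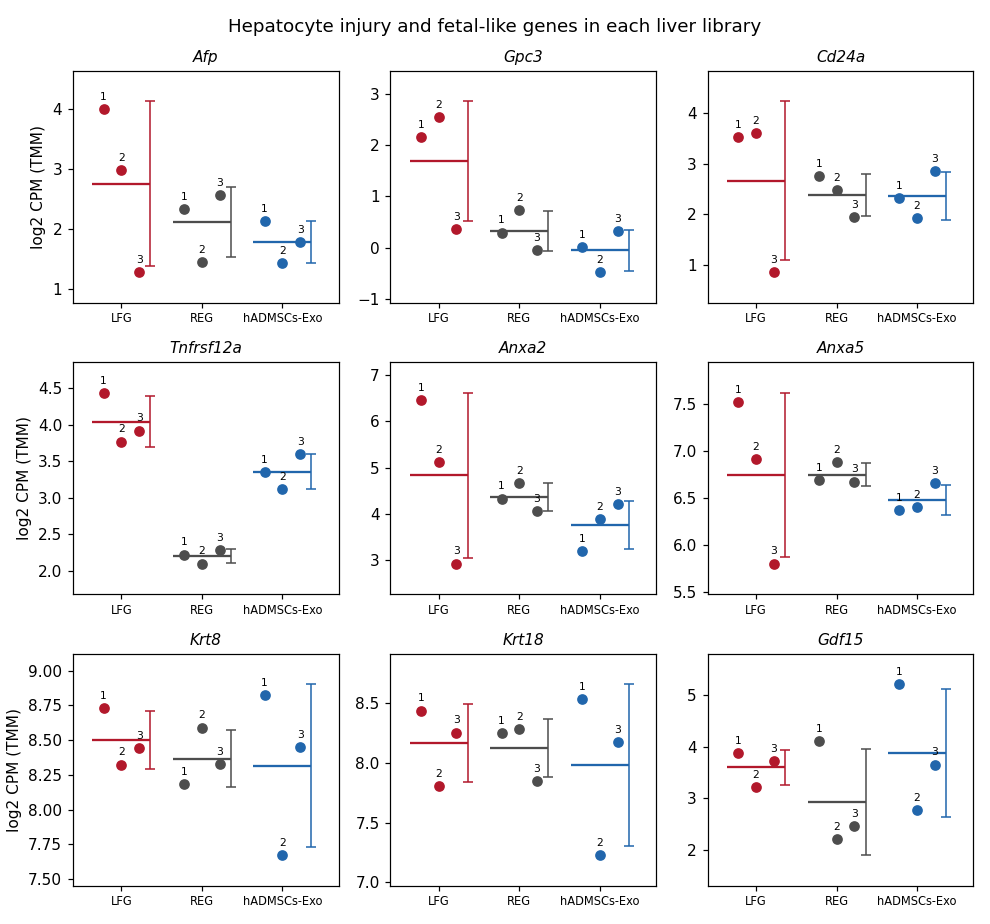
Level of each gene in log2 CPM (TMM) in the 9 libraries, with replicate numbers beside the points, the group mean as a horizontal line and the SD as a bar. Tnfrsf12a was the gene whose 3 groups did not overlap, while LFG 3 was the lowest library of all 9 for Afp, Cd24a, Anxa2 and Anxa5.

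Whether exosome treatment changed these genes was asked by comparing hADMSCs-Exo with REG. None of the 9 passed edgeR's quasi-likelihood test at an adjusted p (Benjamini-Hochberg) under 0.05 and a log2 fold change of 1 or more in either direction, where 0.00811% of all tested genes did. By an unadjusted p under 0.05, 1 of 9 passed (Tnfrsf12a), where 10.0% of all genes did, and 2 of 9 did not overlap between the groups (Tnfrsf12a higher and Anxa5 lower), where 15.5% of all genes did. The median log2 fold change of the 9 genes was -0.065, against 0.0080 over all genes tested. DESeq2 called 1 of the 9, Tnfrsf12a, among 0.543% of all genes, and limma with voom quality weights called 0, where it called 0.0243% of all genes.

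REG was next compared with LFG, from which it differs in time after CCl4, in age and in the PBS injections together. Again 0 of 9 genes passed the edgeR threshold, where 0.0% of all genes did. Tnfrsf12a and Gpc3 had an unadjusted p under 0.05 (11.3% of all genes), and Tnfrsf12a alone did not overlap (18.9% of all genes). All 9 log2 fold changes were below 0, with a median of -0.67 against -0.068 over all genes. DESeq2 called Tnfrsf12a, with 1.91% of all genes, and limma with voom quality weights called Tnfrsf12a, Gpc3 and Cd24a, with 10.3% of all genes. In hADMSCs-Exo against LFG, 0 of 9 passed the edgeR threshold (0.0% of all genes), 2 had an unadjusted p under 0.05 (5.98%), the same 2, Tnfrsf12a and Gpc3, did not overlap (12.3%), and 8 of 9 log2 fold changes were below 0, with a median of -0.71 against -0.059. DESeq2 and voom called none of the 9 there, where they called 0.48% and 0.00801% of all genes. With replicate numbers as pairs (the block) 1 of 9, Tnfrsf12a, had an unadjusted p under 0.05, where 5.72% of all genes did. The 3 comparisons share groups, and their values are not independent of each other. With 3 libraries against 3, an exact two-sided permutation test of a single gene cannot go below p = 0.1.

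**Figure D2:**
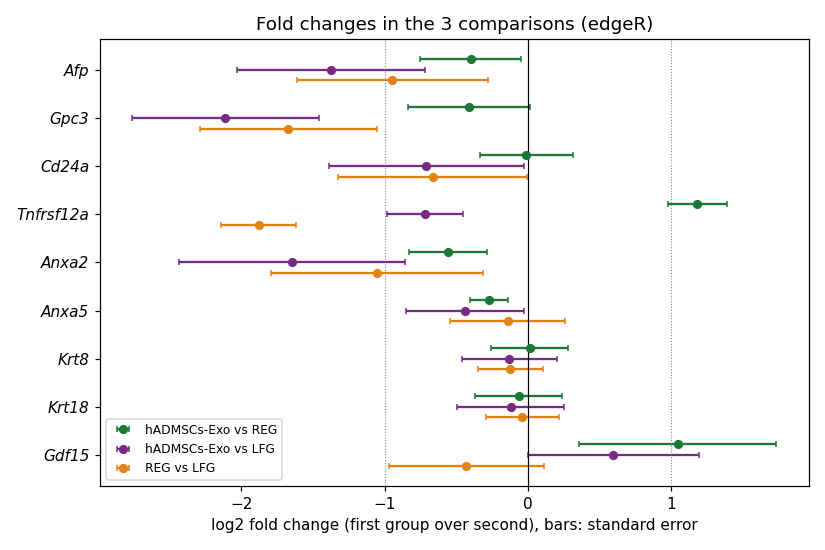
Log2 fold change of each gene (x axis) in the 3 comparisons, with its standard error as a bar and dotted lines at -1 and 1. Tnfrsf12a lay at 1.18 in hADMSCs-Exo vs REG and at -1.88 in REG vs LFG, both with short bars, whereas the bars of Afp, Gpc3, Cd24a and Anxa2 were long in both comparisons with LFG.

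Tnfrsf12a, the TWEAK receptor, had the smallest p of the 9 in the comparison of hADMSCs-Exo with REG and in that of REG with LFG. It stood at 21.5, 13.5 and 15.0 CPM in LFG 1, 2 and 3. It stood at 4.56, 4.17 and 4.78 CPM in REG and at 10.1, 8.55 and 12.0 CPM in hADMSCs-Exo. Every LFG library was above every hADMSCs-Exo library, and every hADMSCs-Exo library above every REG library, an order that 72 of 12760 genes, 0.564%, showed without overlap. The log2 fold change was 1.18 ± 0.21 (SE) in hADMSCs-Exo vs REG (unadjusted p = 0.000396, adjusted p = 0.353 by edgeR) and -1.88 ± 0.26 in REG vs LFG (unadjusted p = 0.000188, adjusted p = 0.243 by edgeR). DESeq2 gave nearly the same sizes, 1.18 and -1.87, with adjusted p-values of 0.00227 and 7.33e-07, so the call depends on the tool. In hADMSCs-Exo vs LFG the log2 fold change was -0.72 ± 0.27 (adjusted p = 0.805 by edgeR), and -0.76 ± 0.26 without LFG 3 (adjusted p = 0.113). Leaving out each library in turn kept the first value between 1.05 and 1.29 and the second between -2.01 and -1.65. LFG 3, the lowest library for 4 of the other genes, lay between the other LFG libraries for Tnfrsf12a.

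The ligand of Tnfrsf12a did not separate the groups while all LFG libraries were used. Tnfsf12 (TWEAK) ranged from 1.06 to 5.45 CPM in LFG, 2.09 to 2.83 in REG and 2.25 to 2.71 in hADMSCs-Exo, groups that overlapped throughout, and its log2 fold change was 0.032 ± 0.28 in hADMSCs-Exo vs REG and -0.067 ± 0.68 in REG vs LFG. LFG 3 held the highest of these values, and without it Tnfsf12 was at 1.09 ± 0.39 in REG vs LFG and 1.09 ± 0.38 in hADMSCs-Exo vs LFG (adjusted p = 0.0844 and 0.119 by edgeR), opposite in sign to its receptor. Of 13 genes of TWEAK receptor signalling, 13 were tested. No gene of this list or of the lists described after it passed the edgeR threshold in any comparison. Cell type markers aside, DESeq2 and voom called none of these genes in hADMSCs-Exo vs REG or in hADMSCs-Exo vs LFG either. Both called Peg3, Cebpb and Cdkn1a in REG vs LFG, where voom also called Traf3 and further genes named with their lists. By unadjusted p under 0.05, Traf1, an adaptor of TNF receptors, was higher in hADMSCs-Exo than in REG by 1.22 ± 0.31 (log2), at 3.14 to 5.42 against 1.59 to 2.31 CPM (adjusted p = 0.380 by edgeR). In REG vs LFG, Traf3, an adaptor that restrains non-canonical NF-κB signalling, was at -0.94 ± 0.34 and Birc3, an inhibitor of apoptosis, at 0.63 ± 0.27. No gene of the list had an unadjusted p under 0.05 in hADMSCs-Exo vs LFG. Without LFG 3, where 10.7% of all genes were called in REG vs LFG and 5.97% in hADMSCs-Exo vs LFG, 1 of 13 was called in the former (Traf3 at -1.18 ± 0.22, adjusted p = 0.0181 by edgeR) and 0 of 13 in the latter, where 3 had an unadjusted p under 0.05. The median of the list was 0.13 in hADMSCs-Exo vs REG and -0.15 in REG vs LFG.

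Afp, Gpc3 and Cd24a were highest in LFG 1 and LFG 2 and low in LFG 3. Afp stood at 15.8, 7.82 and 2.32 CPM in LFG 1, 2 and 3, at 4.93, 2.64 and 5.84 in REG and at 4.26, 2.59 and 3.34 in hADMSCs-Exo. Cd24a stood at 11.4, 12.1 and 1.70 CPM in LFG, at 6.59, 5.44 and 3.72 in REG and at 4.85, 3.67 and 7.12 in hADMSCs-Exo. For both genes LFG 3 was below every other library and the other LFG libraries were above every other library, so that the LFG group spanned all 9. Gpc3 stood at 4.34, 5.70 and 1.16 CPM in LFG, at 1.11, 1.54 and 0.849 in REG and at 0.888, 0.602 and 1.13 in hADMSCs-Exo, from 10 to 103 counts per library. Its LFG 3 value lay just above the highest hADMSCs-Exo value and inside the REG range.

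Against REG, hADMSCs-Exo gave log2 fold changes of -0.40 ± 0.35 for Afp, -0.41 ± 0.42 for Gpc3 and -0.011 ± 0.32 for Cd24a (adjusted p = 0.718, 0.760 and 0.995 by edgeR). All 3 genes overlapped between these groups. Leaving out 1 library moved Afp from -0.68 (without REG 2) to -0.16 (without REG 3) and Gpc3 from -0.64 (without hADMSCs-Exo 3) to -0.17 (without REG 2). Against LFG, hADMSCs-Exo gave -1.37 ± 0.65 for Afp, -2.11 ± 0.65 for Gpc3 and -0.71 ± 0.68 for Cd24a (adjusted p = 0.805, 0.805 and 0.90). REG against LFG gave -0.95 ± 0.66, -1.67 ± 0.62 and -0.67 ± 0.66 (adjusted p = 0.611, 0.406 and 0.718).

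Without LFG 3, more was called, in the members as in the whole table. In hADMSCs-Exo vs LFG, 5.97% of all genes were then called, and with them 3 of the 9: Gpc3 at -2.50 ± 0.40 (adjusted p = 0.0238 by edgeR), Anxa2 at -2.11 ± 0.42 (0.0348) and Afp at -1.79 ± 0.37 (0.0356). In REG vs LFG, 10.7% of all genes were called, and with them 4 of the 9: Tnfrsf12a at -1.92 ± 0.25 (0.0133), Gpc3 at -2.05 ± 0.38 (0.0181), Anxa2 at -1.52 ± 0.37 (0.0350) and Cd24a at -1.12 ± 0.28 (0.0367). Afp missed the threshold in REG vs LFG (-1.37 ± 0.40, adjusted p = 0.0547 by edgeR), as did Cd24a in hADMSCs-Exo vs LFG (-1.15 ± 0.30, adjusted p = 0.0650). Without LFG 1 in place of LFG 3, Afp was at -0.17 and Anxa2 at -0.015 in REG vs LFG, Afp was at -0.59 and Anxa2 at -0.60 in hADMSCs-Exo vs LFG, and 0 of 9 were called in either comparison, where 0.0% of all genes were. LFG 1 was the highest library of all 9 for Afp, Anxa2, Anxa5 and Tnfrsf12a, as it was for 20.2% of all genes, and LFG 3 the lowest for 4 of the 9, as it was for 25.5%.

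**Figure D3:**
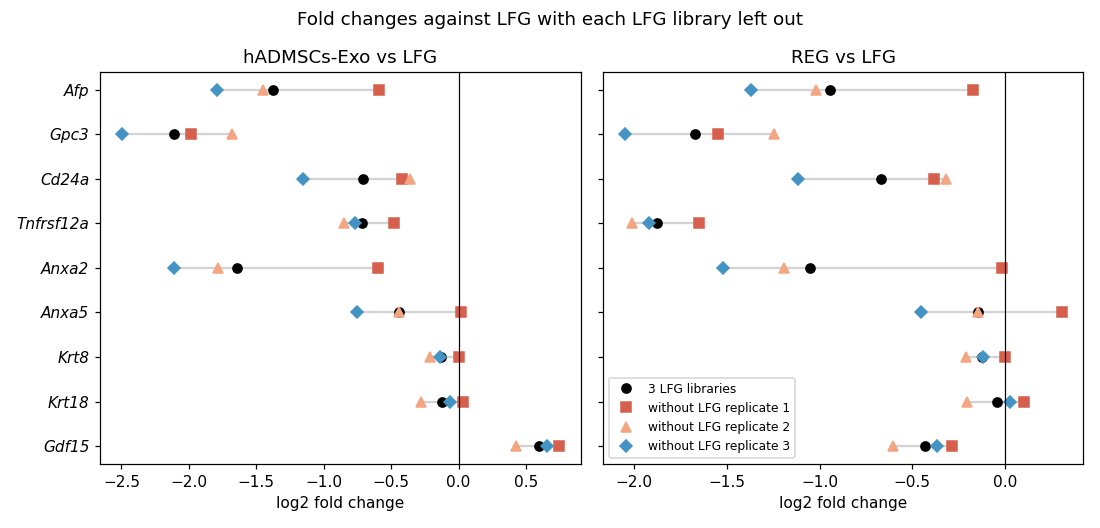
Log2 fold change of each gene against LFG (x axis) with all 3 LFG libraries and with each left out, for hADMSCs-Exo (left) and REG (right). Anxa2 in REG vs LFG moved from -1.52 without LFG 3 to -0.015 without LFG 1, while Tnfrsf12a kept between -2.01 and -1.65.

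The dividing cell and stellate cell marker sums followed the same order as Afp and Anxa2 within LFG, highest in LFG 1 and lowest in LFG 3. Dividing cell markers had 8 of 12 tested genes below LFG at an unadjusted p under 0.05 in hADMSCs-Exo and 7 of 11 in REG. Of all genes, 5.98% and 11.3% passed there in either direction. The groups overlapped for each of these markers except Aurka in hADMSCs-Exo. Mki67 ranged from 1.70 to 92.7 CPM in LFG, 2.76 to 6.22 in REG and 4.16 to 7.22 in hADMSCs-Exo. Of the stellate cell and myofibroblast markers 6 of 11 were below LFG in hADMSCs-Exo at that threshold and 0 of 11 in REG, and 7 of 11 were below REG in hADMSCs-Exo. The 6 overlapped with LFG, while the 7 did not overlap with REG, where 10.0% of all genes passed in either direction. Without LFG 3, 12 of 12 dividing cell markers were called lower in REG and 10 of 12 in hADMSCs-Exo, as were 4 of 11 and 7 of 11 stellate cell and myofibroblast markers, where 10.7% and 5.97% of all genes were called. The summed level of 11 macrophage markers had the same order, at 1807, 1348 and 153 CPM in LFG 1, 2 and 3, 492 to 1420 in REG and 919 to 1155 in hADMSCs-Exo. That of 10 lymphocyte markers had the order of Cd24a, at 70.0, 80.9 and 10.9 CPM in LFG, 31.6 to 58.4 in REG and 51.9 to 69.5 in hADMSCs-Exo. The sums of the cholangiocyte, neutrophil and endothelium lists were also lowest in LFG 3 among the LFG libraries. All 10 lymphocyte and 10 of 11 macrophage markers were above 0 in every library, Gpnmb being listed at 0 in some. In the dividing cell and stellate cell lists 11 of 12 markers each were above 0 in every library, with Ccnb1 and Tagln listed at 0 in some. Their part in the values of the 9 genes was not tested.

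Among genes known to control Afp, the repressor Zbtb20 stood at 75.1 to 137 CPM in LFG, 52.0 to 68.2 in REG and 78.7 to 92.8 in hADMSCs-Exo. REG was below both other groups without overlap, with log2 fold changes of 0.52 ± 0.14 in hADMSCs-Exo vs REG (unadjusted p = 0.00473, adjusted p = 0.394 by edgeR) and -0.79 ± 0.26 in REG vs LFG (adjusted p = 0.388). Cebpb, an activator in the acute phase response, showed the same order, at 88.2 to 158 CPM in LFG, 40.7 to 68.2 in REG and 78.5 to 119 in hADMSCs-Exo. The repressor Zhx2 did not separate the groups, at 9.39 to 20.1, 15.1 to 18.8 and 15.8 to 18.7 CPM. Of the 12 genes of this list, 3 had an unadjusted p under 0.05 and were higher in hADMSCs-Exo than in REG (Zbtb20, Cebpb and Hnf4a, a hepatocyte nuclear receptor, at 0.43 ± 0.15), while in REG vs LFG 2 were lower (Zbtb20 and Cebpb). Of all genes, 10.0% and 11.3% passed there in either direction. None had one in hADMSCs-Exo vs LFG. DESeq2 called 1 of the list in REG vs LFG (Cebpb) and voom 2 (Cebpb and Cebpa, the latter higher in REG), where they called 1.91% and 10.3% of all genes. Without LFG 3, Cebpa was called there too, and Zbtb20 and Cebpb were at -0.52 and -0.98 (adjusted p = 0.106 and 0.0401 by edgeR). Within the albumin family, Alb was at -0.44 ± 0.20 and Afm, which encodes the vitamin E-binding protein afamin, at -0.42 ± 0.15 in hADMSCs-Exo vs REG (adjusted p = 0.515 and 0.446 by edgeR), without overlap for either.

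Of 16 other genes of fetal or tumour liver, 5 were expressed enough to be tested in each comparison. Peg3, an imprinted zinc finger gene, stood at 8.75 to 9.75 CPM in LFG, a narrow range, at 1.70 to 2.89 in REG and at 3.01 to 5.86 in hADMSCs-Exo. It was thus lower in both later groups without overlap, by a log2 fold change of -1.98 ± 0.31 in REG (unadjusted p = 0.000377, adjusted p = 0.243 by edgeR) and -1.24 ± 0.34 in hADMSCs-Exo (adjusted p = 0.805). Mest, another imprinted gene, was at -1.34 ± 0.45 in hADMSCs-Exo vs REG (adjusted p = 0.425 by edgeR), at 0.441 to 0.723 against 1.11 to 2.16 CPM. Its hADMSCs-Exo values rest on 7 to 12 counts per library. Of the 5 tested genes, 3 were higher and 2 lower in that comparison, with a median of 0.76. Every Peg3 value in hADMSCs-Exo lay above every REG value. Ly6d, a small cell surface protein, was at -3.77 ± 1.56 in REG vs LFG (adjusted p = 0.435 by edgeR). Ly6d stood at 170, 23.2 and 0.447 CPM in LFG 1, 2 and 3 and at 2.97 to 7.64 in REG, so that LFG 3 lay below every REG library. Peg3 was called in REG vs LFG by DESeq2 (-1.98, adjusted p = 7.00e-07) and by voom (-2.16, adjusted p = 0.00930). Without LFG 3, 4 of 6 tested genes of the list were called lower in REG (Peg3 at -1.93, Ly6d at -4.33, Spink1 and Scd2) and 2 of 6 in hADMSCs-Exo (Spink1 and Scd2), where 10.7% and 5.97% of all genes were called. Of the 5 other glypicans, 2 or 3 were tested, and none had an unadjusted p under 0.05, while without LFG 3 Gpc6 was called, lower in hADMSCs-Exo than in LFG.

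Anxa2 was the member with the largest SD of log2 CPM within LFG. It stood at 87.6, 34.7 and 7.51 CPM in LFG 1, 2 and 3, at 20.1, 25.4 and 16.7 in REG and at 9.06, 14.7 and 18.5 in hADMSCs-Exo. The log2 fold change was -0.56 ± 0.27 in hADMSCs-Exo vs REG (unadjusted p = 0.0734, adjusted p = 0.533 by edgeR), with the groups overlapping through hADMSCs-Exo 3, -1.64 ± 0.79 in hADMSCs-Exo vs LFG and -1.05 ± 0.74 in REG vs LFG. The first of these ran from -0.80 without hADMSCs-Exo 3 to -0.32 without hADMSCs-Exo 1. S100a10, whose protein forms a complex with annexin A2, was at -0.86 ± 0.29 in hADMSCs-Exo vs REG (unadjusted p = 0.0184, adjusted p = 0.428), with 33.1 to 60.7 against 58.2 to 120 CPM. Unlike Anxa2, S100a10 was not spread within LFG, at 49.7 to 66.7 CPM.

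Anxa5 stood at 183, 120 and 55.7 CPM in LFG, at 103, 118 and 102 in REG and at 82.5, 84.4 and 101 in hADMSCs-Exo. The REG and hADMSCs-Exo libraries did not overlap, but by a narrow gap, and the log2 fold change was -0.27 ± 0.13 (unadjusted p = 0.0767, adjusted p = 0.537 by edgeR). Against LFG it was -0.44 ± 0.41 in hADMSCs-Exo and -0.14 ± 0.40 in REG, and without LFG 1 both became positive, at 0.019 and 0.31. Without LFG 3 they were -0.75 ± 0.23 and -0.45 ± 0.22 (adjusted p = 0.0871 and 0.173 by edgeR). Among 10 tested annexins and S100 partners besides, S100a10 in hADMSCs-Exo vs REG and Anxa6 in REG vs LFG (0.53 ± 0.18, 110 to 125 against 162 to 179 CPM) were the genes with an unadjusted p under 0.05, and voom called 1, Anxa3, lower in REG than in LFG. Without LFG 3, Anxa1 and Anxa3 were called lower in both later groups and S100a11 in hADMSCs-Exo.

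The hepatocyte keratins did not separate the groups. Krt8 stood at 425, 320 and 348 CPM in LFG, at 291, 385 and 321 in REG and at 452, 204 and 349 in hADMSCs-Exo. Krt18 stood at 347, 224 and 306 CPM in LFG, at 304, 312 and 231 in REG and at 372, 150 and 289 in hADMSCs-Exo. For both genes hADMSCs-Exo 1 was the highest and hADMSCs-Exo 2 the lowest of the 9 libraries. The log2 fold changes were 0.011 ± 0.27 and -0.065 ± 0.30 in hADMSCs-Exo vs REG, -0.13 ± 0.33 and -0.12 ± 0.37 in hADMSCs-Exo vs LFG and -0.12 ± 0.23 and -0.040 ± 0.26 in REG vs LFG, and the sign of each turned when single libraries were left out. Without LFG 3 the values against LFG were -0.14 ± 0.35 and -0.067 ± 0.39 in hADMSCs-Exo and -0.12 ± 0.23 and 0.027 ± 0.26 in REG.

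The 2 keratins varied together from library to library. In FPKM, Krt8 spanned a 2.84-fold range and Krt18 a 3.17-fold range over the 9 libraries, while the ratio of Krt8 to Krt18 stayed between 0.703 (REG 1) and 1.05 (LFG 2). Of the genes tested over all libraries, the one whose profile differed least from that of Krt8 was Krt18 (root mean square difference 0.165 on the centred log2 CPM scale, 9 libraries). Ncaph2 was level with Krt18 to 3 digits, also at 0.165. On the same scale Krt8 deviated from its own mean by a root mean square of 0.318. Krt8 was the next to nearest of Krt18, after Pde9a. The bile duct keratins were far lower in CPM, Krt7 at 0.769 to 3.30 and Krt19 at 0.268 to 5.59 over all libraries. By edgeR with LFG 3 kept, neither had an unadjusted p under 0.05 in any comparison. Without LFG 3, Krt7 was at -1.39 ± 0.40 and Krt19 at -1.37 ± 0.48 in hADMSCs-Exo vs LFG (adjusted p = 0.0771 and 0.121 by edgeR). Over the list of other keratins and desmosome genes, Dsp (desmoplakin) was at 0.62 ± 0.23 in REG vs LFG and Plec (plectin, which links filaments to junctions) at -0.42 ± 0.16 in hADMSCs-Exo vs LFG, and voom called 3 genes, Krt7, Vim and Ppl, lower in REG than in LFG. The same 3 were called in REG vs LFG without LFG 3, and Vim in hADMSCs-Exo vs LFG. The sum of 8 cholangiocyte markers was 66.4 to 208 CPM in LFG, 84.6 to 93.2 in REG and 69.3 to 142 in hADMSCs-Exo, with Cftr listed at 0 in some libraries. Of 7 tested, 2 had an unadjusted p under 0.05 in hADMSCs-Exo vs REG, where 10.0% of all genes did. These were Sox9 (-0.86 ± 0.28) and Muc1 (-0.92 ± 0.36), both lower without overlap (adjusted p = 0.409 and 0.463 by edgeR). Without LFG 3, Krt7, Spp1 and Epcam were called lower in REG than in LFG (10.7% of all genes), and Epcam in hADMSCs-Exo (5.97%).

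**Figure D4:**
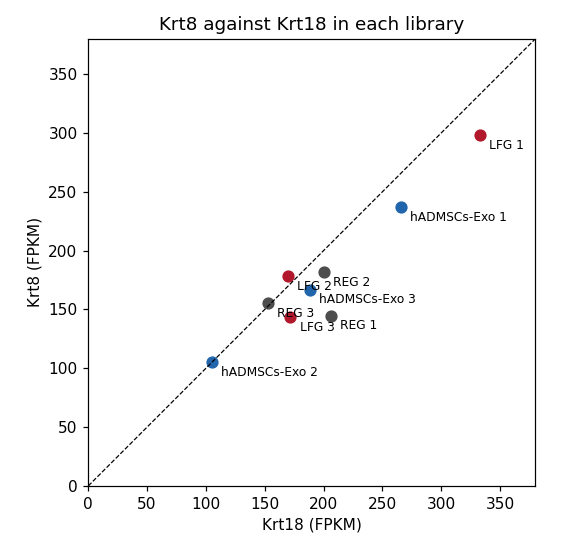
Krt8 against Krt18 in FPKM in each of the 9 libraries, coloured by group, with equal levels as a dashed line. The points lie along the line from hADMSCs-Exo 2, at 105 for both genes, to LFG 1, at 298 and 333, and the groups are mixed along it.

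Gdf15 varied more within the REG and hADMSCs-Exo groups than between the groups. It stood at 14.5, 9.22 and 13.1 CPM in LFG, at 17.1, 4.50 and 5.41 in REG and at 36.8, 6.69 and 12.5 in hADMSCs-Exo. LFG 1, REG 1 and hADMSCs-Exo 1 were each the highest of their group, and all groups overlapped. The log2 fold change in hADMSCs-Exo vs REG, 1.04 ± 0.69 (adjusted p = 0.631 by edgeR), fell to 0.083 without hADMSCs-Exo 1 and reached 1.92 without REG 1. With replicate numbers as pairs, which the labels do not give, it was 0.97 ± 0.20 (unadjusted p = 0.00157, adjusted p = 0.281 by edgeR). In hADMSCs-Exo vs LFG it was 0.59 ± 0.60, and -0.34 without hADMSCs-Exo 1. In REG vs LFG it was -0.43 ± 0.54, and it ran from -1.26 without REG 1 to -0.090 without REG 2. Without LFG 3 the values against LFG were 0.66 ± 0.64 in hADMSCs-Exo and -0.37 ± 0.55 in REG.

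Several stress genes known to act upstream of or beside Gdf15 were lowest in REG. Of 11 tested, 4 were higher in hADMSCs-Exo than in REG at an unadjusted p under 0.05 and 1 was lower, where 10.0% of all genes passed in either direction, and 5 were lower in REG than in LFG, where 11.3% passed in either direction. Ddit3 (CHOP, a factor of the unfolded protein response) stood at 5.89 to 14.2 CPM in LFG, 3.14 to 3.46 in REG and 4.34 to 8.64 in hADMSCs-Exo, with log2 fold changes of 0.95 ± 0.29 in hADMSCs-Exo vs REG and -1.44 ± 0.41 in REG vs LFG (adjusted p = 0.407 and 0.338 by edgeR). Mdm2, the p53 inhibitor, and Sesn2, a sestrin, had the same signs without overlap, at 0.57 ± 0.20 and 0.64 ± 0.24 in hADMSCs-Exo vs REG and at -0.80 ± 0.22 and -1.01 ± 0.29 in REG vs LFG. Cdkn1a (p21), a p53 target, was at 1.53 ± 0.54 and -3.52 ± 1.07, and ranged from 1.70 to 41.7 CPM within LFG. Atf3 was at -1.19 ± 0.41 in REG vs LFG, and Trib3 was lower in hADMSCs-Exo than in REG, at -1.05 ± 0.32. Atf4, the integrated stress response factor, did not separate the groups, with 0.20 ± 0.15 and -0.21 ± 0.36. No gene of this list had an unadjusted p under 0.05 in hADMSCs-Exo vs LFG, where Gdf15 was at 0.59. Between REG and LFG, DESeq2 called 1 gene of the list, Cdkn1a, and voom 4, Cdkn1a, Atf3, Sesn2 and Asns, all lower in REG. Without LFG 3, Cdkn1a was called in both comparisons with LFG, at -4.06 ± 0.41 in REG and -2.55 ± 0.41 in hADMSCs-Exo, and Sesn2 in REG vs LFG, while Ddit3 was at -0.90 ± 0.26 in REG (adjusted p = 0.0520 by edgeR).

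YAP, the effector of the Hippo pathway, is active in injured liver, and 8 of its targets were tested. Amotl2 was at 0.64 ± 0.25 in hADMSCs-Exo vs REG. Ccn2, a fibrogenic matricellular gene, was at -1.36 ± 0.51 in hADMSCs-Exo vs LFG and -1.45 ± 0.57 in REG vs LFG. Its groups overlapped, at 7.78 to 23.3 CPM in LFG, 2.92 to 9.67 in REG and 3.73 to 9.46 in hADMSCs-Exo. Lats2, a Hippo kinase, was at -0.74 ± 0.24 in REG vs LFG. These genes were picked by an unadjusted p under 0.05, which 10.0% of all genes had in hADMSCs-Exo vs REG, 5.98% in hADMSCs-Exo vs LFG and 11.3% in REG vs LFG. By edgeR none of these passed the adjusted threshold, and voom called 2 in REG vs LFG, Ccn2 (lower) and Ccn1 (higher). Without LFG 3, Ccn2 was called in both comparisons with LFG, at -1.75 in REG and -1.65 in hADMSCs-Exo, and Axl in hADMSCs-Exo vs LFG.

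The members did not share 1 profile over the libraries. The nearest profile to Afp was that of Ccnd1 (cyclin D1), with a root mean square difference of 0.167, followed by Lrrc27. For Gpc3 it was Tgfb3 (0.299), then Mgp, and for Cd24a Amz1 (0.195), then Cyp3a44. For Tnfrsf12a it was Celf2 (0.250), then Slx4. Anxa2 was nearest to Cldn4 (0.255) and Rasal1, Anxa5 to Sgk3 (0.129) and Itgb5, and Gdf15 to Klhdc8b (0.427) and Nsun5. These differences are not scaled to the spread of each gene over the libraries, which was 0.871 for Gdf15 and 0.318 for Krt8. They therefore do not rank the members by closeness of match. No member other than the keratins had another member among its nearest 2 genes.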

How the data were processed

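The authors isolated liver RNA with Trizol, used an NEBNext Ultra kit for the libraries, and deposited raw read counts and FPKM for each gene. The submitters' processing notes name cutadapt 1.15, HISAT2 2.0.5, HTSeq 0.9.1, DESeq 1.30.0 and GRCm38. The deposited FPKM differed from counts divided by gene length and library size by a relative 9.19e-07 or less and was used for levels between genes. The columns headed MSC_E were taken as the exosome group, whose treatment label alone names ADMSCs-Exo.

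Counts were tested with edgeR 4.0.16 (quasi-likelihood, two-sided, TMM, its filter on low counts, Benjamini-Hochberg adjustment) in R 4.3.3 on the 6 libraries of the groups compared. A gene was called when its adjusted p was below 0.05 and its log2 fold change 1 or more in either direction. The SE beside an edgeR log2 fold change was derived from its test. It is the absolute log2 fold change divided by the square root of the quasi-likelihood F statistic. CPM used TMM factors over all 9 libraries, with a prior count of 2 on the log2 scale. Alternatives were RLE factors, DESeq2 1.42.0, limma 3.58.1 with voom quality weights, no filter, at least 10 counts in every library, 1 fit of all libraries, the replicate block, omission of each library in turn, and an unadjusted p. Library totals without TMM, and gene lists without LFG 3, were added after the data were seen. Tables and plots were made with Python 3.11.15, pandas 2.3.3 and matplotlib 3.10.9.

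The members and lists were chosen with earlier results of these data known. Named genes are the members, listed genes with an unadjusted p under 0.05, a fixed set of relatives and binding partners, and the 2 nearest profiles of each member. A listed gene that met this rule is not reported here. Of the marker lists, only those whose values stand beside a result are described. The groups share replicate numbers 1 to 3. Deviations from group means of same-numbered libraries correlated by 0.101, 0.308 and 0.180 across genes for hADMSCs-Exo and LFG, each above the limit of 0.1 for treating them as pairs, a hint from the data that the labels do not give. Under the replicate block the median of the 9 genes in hADMSCs-Exo vs LFG was -0.46 and 0 of 9 were called.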

Additional observations from a re-analysis of the deposited data

How the results depend on the processing

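The lowest counts in a library were 10 for Gpc3, 19 for Cd24a and 26 for Afp, and counting error was not separated from the spread between libraries. Of all genes in hADMSCs-Exo vs REG, 1 was called in the main analysis, 67 by DESeq2, 3 by voom, 4 without the filter, 0 with all libraries in 1 fit and 0 to 1 with single libraries left out. Of the 9 genes, DESeq2 called 1, and 1237 genes with 1 member had an unadjusted p under 0.05. In hADMSCs-Exo vs LFG, 0 genes became 60 with DESeq2, 1 with voom, 1 in the joint fit and 0 to 773 with single libraries left out, with 0 to 3 members called, and 747 genes with 2 members had an unadjusted p under 0.05. In REG vs LFG, 0 genes became 239 with DESeq2 (1 member), 1285 with voom (3 members) and 0 to 1391 with single libraries left out (0 to 4 members, and a members' median of -1.12 to -0.17), and 1417 genes with 2 members had an unadjusted p under 0.05. In both comparisons with LFG the upper ends came from leaving out LFG 3.

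The sign of small values turned. In hADMSCs-Exo vs REG, Cd24a was at 0.029 with voom, 0.039 with library totals and -0.30 to 0.20 with single libraries left out. Krt8 was at -0.14 with voom, -0.051 under the replicate block and -0.27 to 0.27 with libraries left out, and Krt18 at 0.00038 with library totals and -0.37 to 0.23. In hADMSCs-Exo vs LFG, leaving libraries out gave -0.75 to 0.019 for Anxa5, -0.38 to 0.14 for Krt8, -0.39 to 0.18 for Krt18 and -0.34 to 1.01 for Gdf15. In REG vs LFG, Krt8 was at 0.036 and Krt18 at 0.23 with voom, Krt18 at 0.0053 without the filter and Anxa5 at 0.012 under the replicate block, and leaving libraries out gave -0.45 to 0.31 for Anxa5, -0.22 to 0.0027 for Krt8 and -0.20 to 0.12 for Krt18. The causes were not tested. Tnfrsf12a, Afp, Gpc3 and Anxa2 kept their sign under every alternative in each comparison. Library totals shifted the median of all genes to -0.18 in hADMSCs-Exo vs LFG and -0.27 in REG vs LFG. For hADMSCs-Exo with REG and for REG with LFG, same-numbered libraries did not all deviate together (0.159, 0.00939 and 0.0336, and 0.415, -0.202 and 0.305), and the block changed no call of the 9 genes at the adjusted threshold. At an unadjusted p under 0.05 it moved the members in hADMSCs-Exo vs REG from 1 to 2. Gdf15 was the gene added, its SE going from 0.69 to 0.20 at a log2 fold change of 0.97 (adjusted p = 0.281 by edgeR, against 0.631).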
